A study of Mus musculus with 5 samples.

Results

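This account covers the chromatin around 5 genes of the MEIS and PBX families, Meis1, Meis2, Meis3, Pbx2 and Pbx3, in the anterior forelimb bud of mouse embryos. Peaks of 5 ATAC-seq libraries that shared at least 1 bp were merged into regions. The members are the regions that lie in the body of 1 of the 5 genes or within 100 kb of it, which gave 106 of 86713 regions. The rule for the regions uses genome position alone, but the genes were chosen, as proximal limb genes, with earlier results of these data known. No library separates proximal from distal limb, so the name itself could not be checked. ATAC-seq uses a transposase that cuts open chromatin, and a peak marks DNA that was cut more often than the background of its library. Each library came from 50K cells of the anterior forelimbs of 1 genotyped embryo at E11.5 (40 to 48 somites). The 2 controls were Prx+/+;Smarcc1c/c, with both conditional alleles and no Cre. The 3 mutants were PrxCre/+;Smarcc1c/c, which add a Prx-driven Cre, a driver known to work in the mesenchyme of the limb. Smarcc1 encodes a scaffold protein of BAF, an ATP-dependent remodeller of nucleosomes, and the series asks whether BAF is needed for repression by the GLI proteins of Hedgehog signalling. No measurement of Smarcc1 protein or RNA is in these libraries, so its loss could not be checked. Cells outside the Cre domain, such as ectoderm, vessels and blood, were not removed, and fewer open cells and less open chromatin per cell cannot be told apart in such bulk samples.

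MEIS and PBX proteins are homeodomain transcription factors of the TALE class, which carry a short insertion in the homeodomain. They bind DNA as heterodimers with each other and as partners of HOX proteins. In the early limb bud Meis1 and Meis2 mark the proximal part, where retinoic acid promotes their expression, and FGF signalling from the distal tip restricts it. Pbx genes are expressed more broadly and contribute to limb patterning, while Meis3 is best known from the hindbrain.

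On chromosomes 1 to 19 and X the deposited lists hold 68959 peaks (control 1), 60333 (control 2), 36719 (mutant 1), 42794 (mutant 2) and 27194 (mutant 3). Read numbers are unknown. Their values imply a background of 4.77 to 6.42 fragments per position. The lowest fold enrichment (summit pileup over that background, each plus 1, as the authors' lists give it) lay between 2.29 and 2.52. A region without a peak can therefore still be open below those levels. Every one of 8 limb mesenchyme markers had a peak within 1 kb of a gene end in 4 libraries, and 6 of them did in mutant 3. Ectoderm markers had such a peak at 7 of 8 genes in each control against 5 or 6 in the mutants, and muscle precursor markers at 4 or 5 of 5 against 1 to 4. Endothelial markers had one at 2 to 4 of 7 against 2 in each mutant, blood markers at 3 of 6 in every library, and neural crest and glia markers at 4 or 5 of 5 on both sides. The part of cell composition in the results was not tested.

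The promoters are shown because peak coverage of them differed between the genes. RefSeq (build GRCm38.p6, the coordinates of mm10) gave a promoter, 250 bases before to 50 after the start, for 4 of the 5 genes, and Pbx3 had none in that table. Each sequence reads 5′ to 3′ along the gene, and capitals mark the bases that lay under a peak in both controls.
Meis1 (chr11:19018920-19019219, minus strand): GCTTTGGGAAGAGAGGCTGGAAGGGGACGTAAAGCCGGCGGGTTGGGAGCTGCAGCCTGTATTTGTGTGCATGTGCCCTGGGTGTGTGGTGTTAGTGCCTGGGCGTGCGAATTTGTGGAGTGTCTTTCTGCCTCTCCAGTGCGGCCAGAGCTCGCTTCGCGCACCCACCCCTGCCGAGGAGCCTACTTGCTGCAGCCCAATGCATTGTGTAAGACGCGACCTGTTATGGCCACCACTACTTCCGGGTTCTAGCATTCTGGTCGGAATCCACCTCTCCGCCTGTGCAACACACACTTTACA
Meis2 (chr2:116064570-116064869, minus strand): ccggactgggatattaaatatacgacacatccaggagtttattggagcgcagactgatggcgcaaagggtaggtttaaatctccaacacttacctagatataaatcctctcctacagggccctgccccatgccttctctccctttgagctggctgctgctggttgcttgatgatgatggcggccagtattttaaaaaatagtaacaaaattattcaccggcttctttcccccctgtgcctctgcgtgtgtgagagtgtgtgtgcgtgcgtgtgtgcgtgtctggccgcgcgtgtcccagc
Meis3 (chr7:16175145-16175444, plus strand): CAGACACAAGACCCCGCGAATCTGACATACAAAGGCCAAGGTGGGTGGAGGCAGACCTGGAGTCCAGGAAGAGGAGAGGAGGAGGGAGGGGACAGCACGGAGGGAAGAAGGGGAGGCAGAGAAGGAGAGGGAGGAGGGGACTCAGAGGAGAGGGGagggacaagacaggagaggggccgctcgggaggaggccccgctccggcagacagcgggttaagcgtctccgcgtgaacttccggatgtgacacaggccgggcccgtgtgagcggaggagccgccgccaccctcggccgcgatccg
Pbx2 (chr17:34592009-34592308, plus strand): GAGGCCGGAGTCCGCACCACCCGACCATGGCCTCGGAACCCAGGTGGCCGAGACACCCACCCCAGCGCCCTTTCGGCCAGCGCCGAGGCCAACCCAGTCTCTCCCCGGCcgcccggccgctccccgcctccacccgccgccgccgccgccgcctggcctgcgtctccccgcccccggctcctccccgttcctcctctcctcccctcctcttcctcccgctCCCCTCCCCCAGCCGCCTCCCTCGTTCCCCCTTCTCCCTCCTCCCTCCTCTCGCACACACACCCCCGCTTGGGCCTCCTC
All 300 bases of the Meis1 window lay under a peak in each of the 5 libraries. None of the Meis2 window did in any library: its start lies inside the annotated gene, and the window falls between 2 of the regions described below. At Meis3 the peak covered 300 and 155 bases in controls 1 and 2 and 115 in mutant 1, and no peak touched the window in mutants 2 and 3. At Pbx2 it covered 189 bases in control 1 and all 300 in the other 4 libraries. The 4 windows held 15, 13, 21 and 29 CG dinucleotides (Meis1, Meis2, Meis3, Pbx2), above the median of 7 over 32851 promoter windows. Searched on both strands, TGACAG (MEIS), TGATTNAT (HOX with PBX), the composite site of PBX with MEIS or PREP (which contains the MEIS letters), TGGGTGGTC (GLI) and TGANTCA (AP-1) had no match in any of the 4 windows. Of all promoter windows, 19.2%, 3.22%, 0.222%, 0.253% and 7.81% held them, in that order.

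The mutant lists held fewer regions than the control lists around Meis1, Meis2 and Pbx3, with no overlap of the groups, as they did over the whole series, and around Meis3 and Pbx2 the groups overlapped. Over the 106 regions, controls 1 and 2 held 69 and 61 and mutants 1, 2 and 3 held 39, 60 and 27. As shares of the members these are 65.1% and 57.5% for the controls and 36.8%, 56.6% and 25.5% for the mutants, where 75.3%, 65.0%, 37.4%, 44.8% and 27.3% of all regions were held in the same order. Every mutant lay below both controls for the members as for all regions, with mutant 2 only 1 member region below control 2. The means were 65.0 ± 5.66 (SD, n = 2) and 42.0 ± 16.7 (SD, n = 3), a difference of -23.0 (exact two-sided permutation p = 0.2, the smallest that 2 against 3 libraries allow, and 0.3 after Benjamini-Hochberg adjustment over the 6 counts tested). At Meis1 the 5 libraries held 11, 9, 7, 7 and 5 of 16 regions, in the order control 1, control 2, mutant 1, mutant 2, mutant 3. In the same order Meis2 had 20, 15, 7, 10 and 6 of 22, and Pbx3 had 12, 13, 4, 8 and 3 of 20. For each of these 3 genes the exact permutation p was 0.2 (adjusted 0.3). Meis3 had 9, 10, 9, 15 and 6 of 21 (exact permutation p = 1, adjusted 1) and Pbx2 17, 14, 12, 20 and 7 of 27 (exact permutation p = 0.8, adjusted 0.96), with mutant 2 the highest library at both. That direction turned once the lists were made equally long: over the 27194 strongest peaks of each library, mutants held on average 4.5 more member regions than controls (exact permutation p = 0.2), and the difference at Meis2 was -0.167 in place of -9.83 (exact permutation p = 1). That cut takes the most peaks from the control lists and none from mutant 3. The same difference over all regions was not counted, so the turn cannot be set against a background. The groups also overlapped at a −log10 q-value of at least 10 (exact permutation p = 0.4), with regions built from summits within 250 bp (p = 0.4) and without control 1 (p = 1). Meis1 and Pbx3 overlapped at a −log10 q-value of at least 5 (exact permutation p = 0.6 and 0.4) and of at least 10 (p = 0.4 and 0.8).

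**Figure D1:**
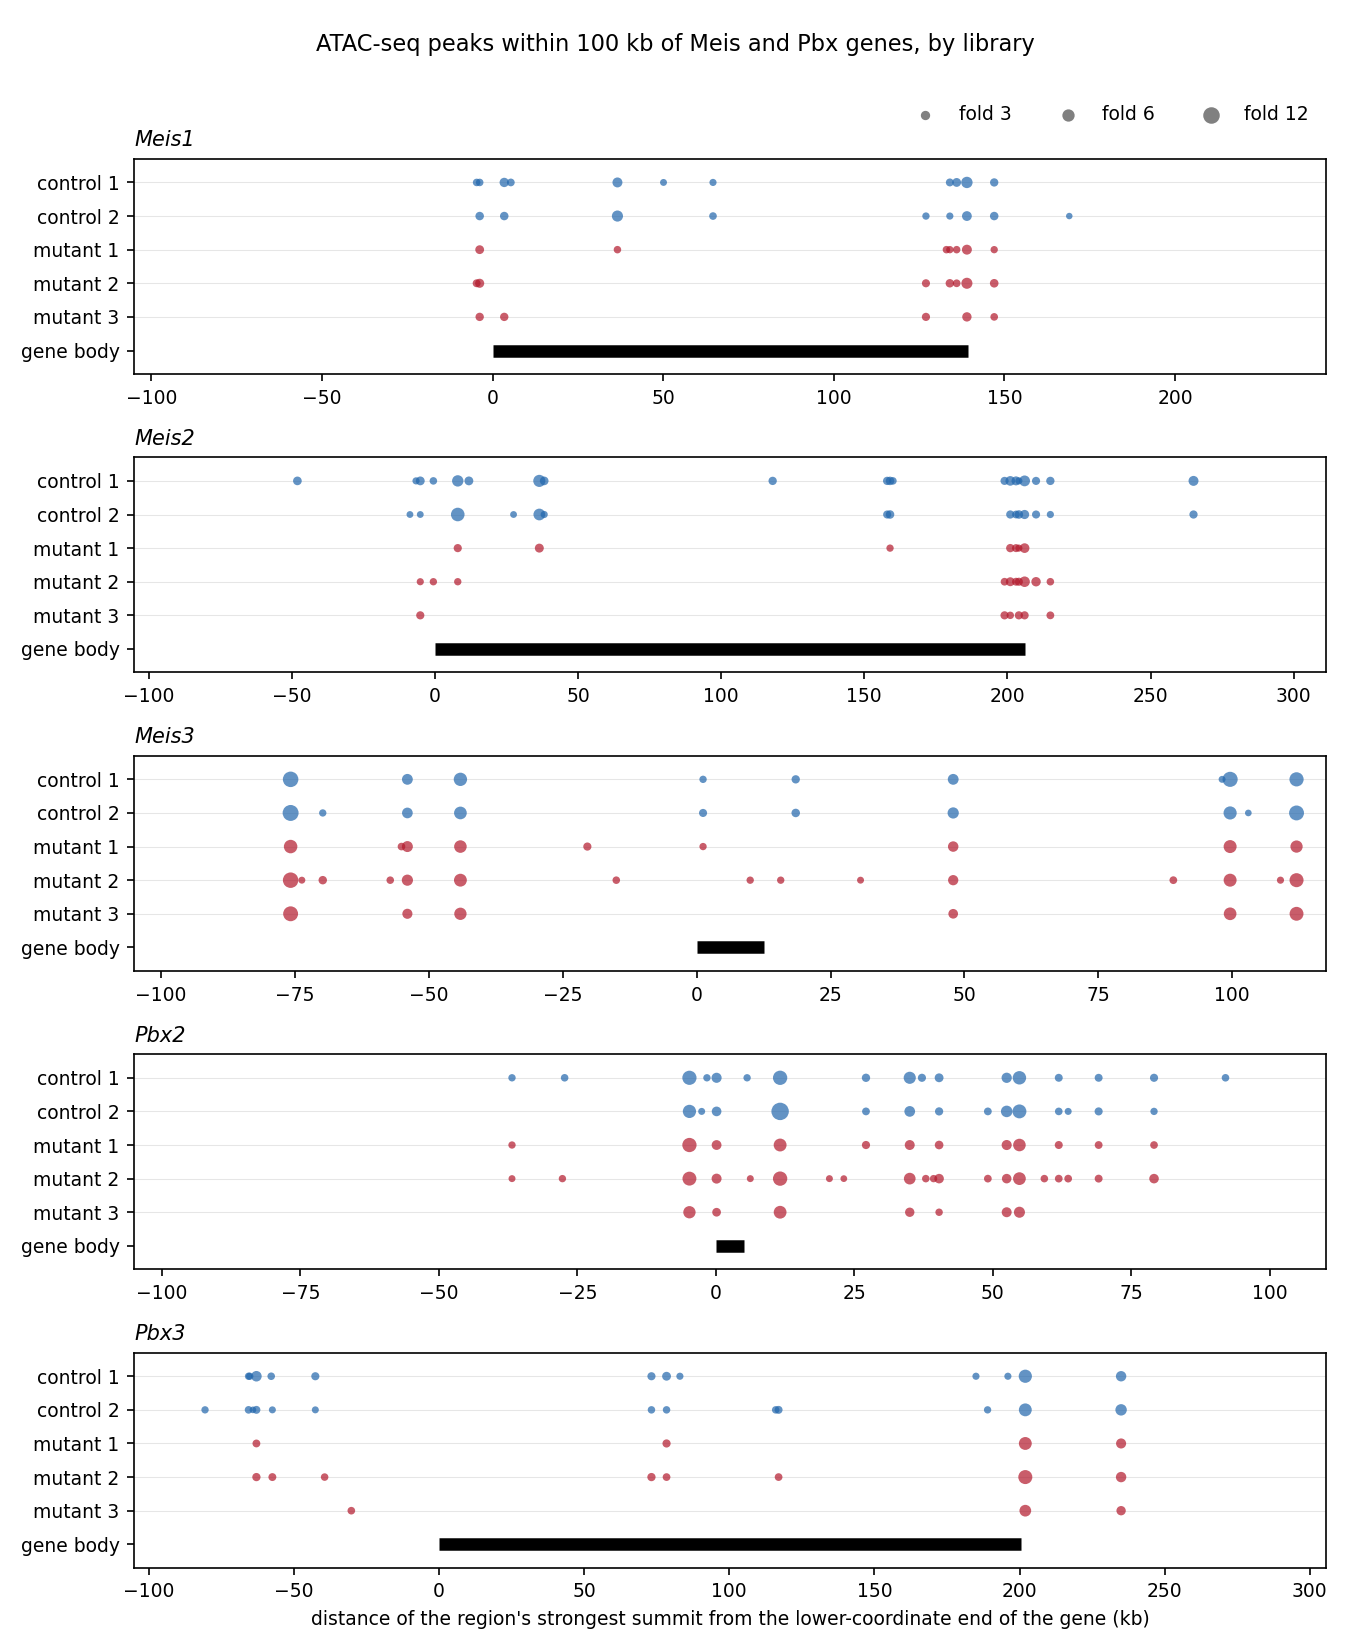
Peaks in the gene body (black bar) and 100 kb on each side of the 5 genes, 1 row per library, with controls in blue and mutants in red. The horizontal axis is the distance in kb of each region's strongest summit from the lower-coordinate end of the gene, and dot area grows with the authors' fold. The large dots at 1 annotated end of Meis1, Meis2, Pbx2 and Pbx3 are present in all 5 rows, while the large control dots inside Meis1 and Meis2 shrink or are missing in the mutant rows.

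Of the 106 regions, 60 had an end of the member as their nearest protein-coding gene end and 46 had the end of another gene. All 16 regions of Meis1, 21 of 22 of Meis2 and 19 of 20 of Pbx3 belonged to the first kind. The short genes Meis3 (12.5 kb) and Pbx2 (5.14 kb) lie among close neighbours, and only 3 of 21 and 1 of 27 regions had the member as the nearest end. The remaining regions there lay nearest to ends of 7 and 10 other genes. Values at Meis3 and Pbx2 thus describe gene-dense neighbourhoods more than these genes.

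Meis1 (chromosome 11, 18880428 to 19019651, mm10, minus strand) encodes a cofactor of HOX and PBX proteins. All libraries held the region at its start, while its strongest distal region (more than 1 kb from any end of a protein-coding gene) had no peak in 2 mutants. The start region (19018747 to 19021474) had folds of 7.46 and 5.52 in controls 1 and 2 and of 5.71, 7.06 and 5.05 in mutants 1, 2 and 3. All 5 libraries held it, and the mutant values spread over the control values. The peak there was 2687 and 2207 bp wide in the controls (widest of those within the region) and 2283, 2334 and 1438 bp in the mutants, with the narrowest in mutant 3. A region 7.77 kb upstream of the start (19027075 to 19027745) was held by all 5 libraries as well, with folds of 3.99, 4.18, 3.09, 4.27 and 3.36. So was a region 3.77 kb beyond the other end of the gene (18876385 to 18878275), with folds of 3.29, 4.18, 4.47, 4.76 and 4.04.

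Inside Meis1, 36.6 kb from its downstream end, a region (18916603 to 18917281) had folds of 5.72 and 7.14 in the controls, 3.24 in mutant 1 and no peak in mutants 2 and 3. Those folds correspond to 32 and 52 fragments at the summit in the controls and 20 in mutant 1. Both controls thus stood above the 1 mutant that had a peak. The region fell in strength decile 8 of the regions shared by both controls (10 is the strongest), and 21.9% of distal regions in that decile had a peak in at most 1 mutant. A weaker region in the body (18883470 to 18883967), 3.43 kb from the downstream end, had folds of 5.03 and 4.18 in the controls, 4.04 in mutant 3 and no peak in mutants 1 and 2. The region absent from every mutant (18944906 to 18945268) was the weakest of the 7 that both controls held at Meis1, with folds of 2.95 and 3.37. A region 4.88 kb inside the start (19014546 to 19015116) had folds of 3.64, 2.96, 3.09 and 4.11 and none in mutant 3. The other 9 regions of Meis1 were in at most 1 control, with folds of 2.43 to 4.51.

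Meis2 (chromosome 2, 115861264 to 116067537, minus strand), the other MEIS gene of the proximal limb, had the most regions shared by both controls, 13. Of these, 3 were held by all mutants, 4 by 2 mutants, 3 by 1 mutant and 3 by none. The region at the upstream end of the annotated gene (116066141 to 116067431) had folds of 6.76 and 4.85 in controls 1 and 2 and of 5.40, 6.41 and 3.87 in mutants 1, 2 and 3. A neighbour 1.88 kb inside that end (116065459 to 116065847) had folds of 2.95, 4.18, 2.93, 3.78 and 3.87, and another at 5.07 kb (116061400 to 116062822) had 5.37, 3.91, 4.01, 4.60 and 3.20. All 5 libraries held these 3 regions, and in each the mutant folds overlapped those of the controls. The region between them (116063912 to 116064252) was held by all libraries except mutant 3. Upstream of the gene, the region at 4.21 kb (116071425 to 116071967) had folds of 3.81 and 3.77 in the controls and 5.09 in mutant 2 alone of the mutants. The one at 8.37 kb (116075560 to 116076273) was missing only from mutant 1.

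Towards the downstream end of Meis2 lay the 2 strongest of the distal regions that have 1 of the 5 genes as nearest, and both had lower folds or no peak in the mutants. The first (115868850 to 115869987), 8.01 kb inside the downstream end, had folds of 7.46 and 10.6 in the controls, 3.86 in mutant 1, 3.12 in mutant 2 and no peak in mutant 3. At its summit lay 42 and 78 fragments in the controls and 24 and 18 in mutants 1 and 2, and the lowest summit of any peak in the list of mutant 3 had 14. The peak was 1126 and 1049 bp wide in the controls and 218 and 494 bp in mutants 1 and 2. Its mutant values all lay below both controls, and the share of all distal regions of like strength with that pattern was not counted. The second (115897139 to 115898130), 36.5 kb from the same end, had folds of 8.50 and 7.95 in the controls and 4.63 in mutant 1, with no peak in mutants 2 and 3. Its peak was 790 and 992 bp wide in the controls and 266 bp in mutant 1. Both regions fell in strength decile 9, where 86.6% of 1447 distal regions were in all mutants. For the first region, missing only from mutant 3, the matching share is the 11.1% of that decile absent from mutant 3. For the second, held by 1 mutant, it is the 6.43% in at most 1. These regions and the one inside Meis1 were singled out after their values were seen, so the folds are a description, and folds of different lists are not scaled to each other.

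Regions of Meis2 in both controls and no mutant were weaker. They were a region 38.2 kb from the downstream end (115899291 to 115899570) with folds of 4.33 and 2.96, a region 47.9 kb inside the upstream end (116019181 to 116019771) with 3.99 and 3.77, and a region 58.2 kb upstream of the gene (116125588 to 116126495) with 5.72 and 3.91. The second adjoins a region (116019976 to 116021232) that mutant 1 held with a fold of 3.09, against 4.16 and 4.18 in the controls. Downstream of the gene, a region at 5.08 kb (115855884 to 115856286) had folds of 4.51 and 2.69 in the controls and 2.96 and 3.87 in mutants 2 and 3, so control and mutant values overlapped there. The region at the downstream end itself (115860604 to 115860936) was weak, with 3.29 in control 1 and 3.12 in mutant 2 alone. The 9 regions of Meis2 outside the shared set had folds of 2.69 to 4.51.

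**Figure D2:**
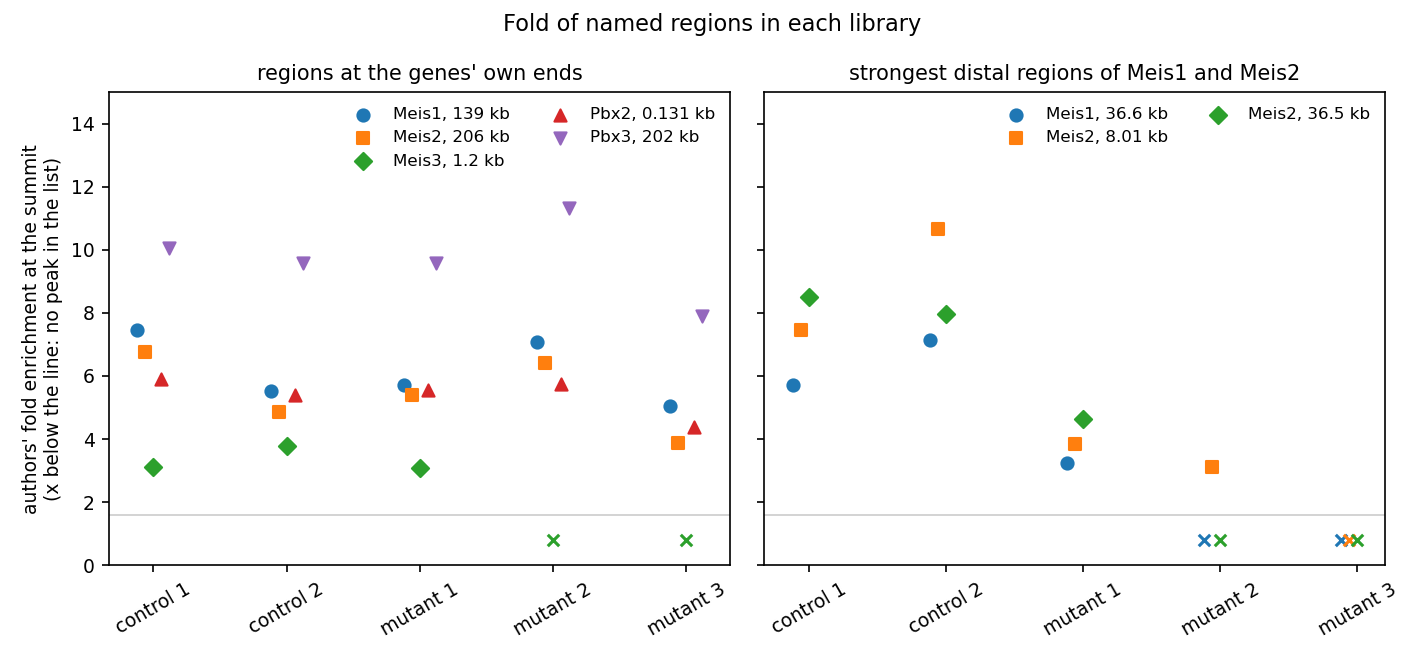
Authors' fold enrichment at the summit (vertical axis, linear from 0) in each library for the 5 regions at the genes' own ends that both controls held (left) and for the 3 distal regions of Meis1 and Meis2 in strength deciles 8 to 10 (right). The legend gives the distance in kb from the lower-coordinate end of the gene, and a cross marks a library with no peak. On the left only Meis3 lacks peaks, in mutants 2 and 3, and on the right every mutant value lies below both controls. The regions on the right were chosen for their strength in the controls, and folds are not scaled between lists. How many other distal regions of that strength show the same was not counted.

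Meis3 (chromosome 7, 16174012 to 16186510, plus strand) had 1 region in its body that both controls held, at 1.20 kb from the annotated start (16174873 to 16175474), which overlaps the promoter sequence above. Its folds were 3.12 and 3.77 in the controls and 3.09 in mutant 1, with no peak in mutants 2 and 3. It was the only one of the 5 regions at the genes' own ends in both controls that not every mutant held, and it was the weakest of them in the controls. The other 4 were in all mutants, as were 11355 of 13975 gene-end regions of both controls over the whole series, a like share. A region 5.96 kb beyond the gene (16192316 to 16192577, nearest to an end of Dhx34) had folds of 3.99 and 4.18 in the controls and no peak in any mutant. The 6 regions in all 5 libraries lay nearest to ends of Napa, Kptn, Slc8a2, Dhx34, Inafm1 and Ccdc9. The strongest, at an end of Napa (16097750 to 16099520), had folds of 13.9, 14.7, 10.5, 13.8 and 12.8. Mutant 2 alone held 8 of the 21 regions (38.1%), against 8.03% of all regions.

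Pbx2 (chromosome 17, 34592259 to 34597400, plus strand), a PBX gene in a dense part of the genome, kept its start region in all 5 libraries. That region (34591001 to 34593966) had control folds of 5.90 and 5.39 and mutant folds of 5.55, 5.75 and 4.37. Mutants 1 and 2 lay within the range of the controls and mutant 3 lay below it. Beyond the downstream end, a region in control 1 alone (34597713 to 34597952, fold 3.12) and one in mutant 2 alone (34598317 to 34598520, fold 2.79) were weak. No region of both controls at Pbx2 was absent from every mutant, 0 of 11, where the rates over all regions of the same class and strength add up to 1.7. Of the 11, 9 were gene-end regions, of which 4.64% were absent from every mutant over the whole series. The strongest neighbours in all 5 libraries lay nearest to ends of Rnf5 (34603016 to 34606888, folds of 11.8, 17.5, 9.57, 11.8 and 9.42), Notch4 (34585943 to 34588278, folds of 11.6, 10.1, 11.7, 11.2 and 8.75) and Atf6b (34646609 to 34647858, folds of 10.4, 11.2, 9.10, 9.36 and 7.06). Mutant 3 had the lowest fold at each of these 3. Mutant 2 alone held 7 of the 27 regions (25.9%). The 15 regions that mutant 2 alone held at Meis3 and Pbx2 were weak, with folds of 2.63 to 3.45 and widths of 200 to 646 bp. Meis1, Meis2 and Pbx3 together had 2 such regions of 58. No test was made of this contrast, which was noticed in the values. Mutant 2 was also the highest library by regions held at Rara (40, controls 35 and 32) and Rarg (27, controls 26 and 24). At every other gene of the TALE and limb lists described below it was not above both controls.

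Pbx3 (chromosome 2, 34171457 to 34372045) had the strongest region at its own end. The region at its higher-coordinate end (34370896 to 34373737) had control folds of 10.1 and 9.57 and mutant folds of 9.57, 11.3 and 7.91, so the groups overlapped. Away from that end no distal region of Pbx3 was held by all mutants, and mutant 3 held none of the 5 distal regions of both controls. Both counts were near the background: over all distal regions of both controls farther than 10 kb from a gene end 21.8% were in all mutants, and in strength deciles 1 to 5, where the 5 lie, 69.4% to 93.9% of distal regions were absent from mutant 3. Those outside the gene lay 42.6 to 65.6 kb below its lower-coordinate end. The strongest (34107846 to 34108842), at 62.9 kb, had folds of 6.42 and 3.64 in the controls, 3.55 in mutant 1, 3.94 in mutant 2 and none in mutant 3. The regions at 65.6 kb (34105312 to 34106031, folds of 3.12 and 3.37) and 42.6 kb (34128559 to 34129181, folds of 3.81 and 2.83) had no peak in any mutant. In the body, a region (34249489 to 34250006) had folds of 4.51 and 3.23 in the controls and 3.86 and 3.45 in mutants 1 and 2. Another (34244571 to 34244949) had 3.81 and 3.23 in the controls and 3.94 in mutant 2 alone of the mutants. The second region in all libraries lay 34.8 kb beyond the gene at an end of Mapkap1 (34406424 to 34407398), with folds of 6.24, 7.55, 5.86, 6.24 and 5.05. Of the 20 regions, 11 were in a single library.

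Fewer of the control regions around these genes were missing from all mutants than over the whole series. Both controls shared 46 member regions, and 7 of them (15.2%) had no peak in any mutant, against 30.4% of 45158 regions over all. All 7 were distal: 7 of 27 distal regions (25.9%, over all 42.0%) and 0 of 19 gene-end regions (over all 4.64%). Given the strength decile and class of each region, the rates over all regions add up to 13.2 regions for the 46. At Meis1, Meis2 and Pbx3 together, 6 of 27 regions (22.2%) were in no mutant, where those rates add up to 10.7. At Meis3 and Pbx2, mostly near ends of other genes, it was 1 of 19 (5.26%), where they add up to 2.49. Of the regions nearest to a member's end it was 6 of 28 (21.4%). In all 5 libraries were 21 regions, 19.8% of the 106 (over all 22.6%) and 45.7% of the 46 (over all 43.4%). The closeness of the last share to the background joins unlike parts. It was 29.6% of 27 regions at Meis1, Meis2 and Pbx3, and 68.4% of 19 at Meis3 and Pbx2, of which 15 were gene-end. Among the regions nearest to a member's end it was 28.6% of 28. No member region was in all 3 mutants and neither control, a pattern at 0.0484% of all regions. Present in a single library were 50 regions (47.2%, over all 41.1%), with folds of at most 4.51. Control 1 alone held 19 of the 106 (over all 19.7%), control 2 alone 9 (over all 10.3%), mutant 1 alone 4 (over all 2.30%), mutant 2 alone 17 (over all 8.03%) and mutant 3 alone 1 (over all 0.787%). These shares set regions of the same 5 libraries side by side, and no difference from other genes was tested. The count of 7 rested on the libraries: it became 16 of 61 without control 1, 26 of 70 without control 2 and 12 of 46 without mutant 1, against 41.0%, 47.8% and 35.1% over all regions. Among gene-end regions the share turned above the background without control 2, with 5 of 25 (20%, over all 12%).

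Per mutant, 73.9%, 71.7% and 52.2% of the 46 regions had a peak in mutants 1, 2 and 3, a mean of 65.9% ± 11.9 (SD, n = 3), against 60.9%, 61.4% and 48.2% over all regions. By gene the mean was 84.8% ± 18.9 for Pbx2, 79.2% ± 7.22 for Meis3, 61.9% ± 8.26 for Meis1, 52.4% ± 21.8 for Pbx3 and 51.3% ± 11.7 for Meis2. The genes differed in class: 9 of 11, 6 of 8, 1 of 7, 2 of 7 and 1 of 13 regions were gene-end, in the same order. Over all regions 4.64% of gene-end and 42.0% of distal ones were in no mutant. The ranges of neighbours in this order overlapped, except that each mutant held a higher share at Meis3 than at Meis1. Mutant 3 was the lowest of the 3 for Meis2, Pbx2 and Pbx3 and shared the lowest place with mutant 2 for Meis1 and Meis3.

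**Figure D3:**
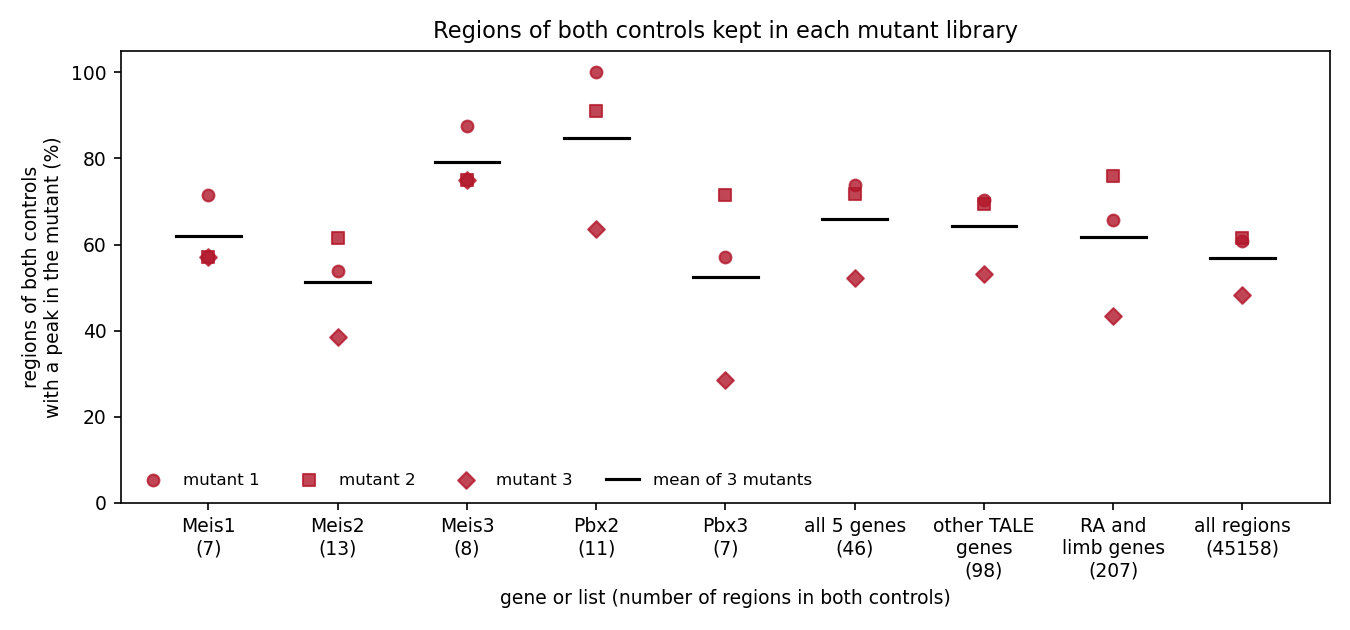
Share (%) of the regions in both controls that had a peak in each mutant library, by gene or list, with the number of regions in parentheses and the mean of 3 mutants as a line. Pbx2 and Meis3 lie at the top, Meis2 and Pbx3 at the bottom, and the 5 genes together average 65.9%, with mutant 3 at the low end of the lists.

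Of the 7 regions missing from every mutant, 6 lay farther than 10 kb from a gene end, a share close to the background. Over the whole series, 10744 of the 13094 distal regions in both controls and no mutant lay as far. Among the 27 distal regions of both controls, 14 lay within 10 kb of a protein-coding gene end, of which 1 was in no mutant and 5 in all mutants. Over all such regions 25.7% were in no mutant and 37.5% in all. The other 13 lay farther away, with 6 in no mutant and 0 in all, against 48.8% and 21.8% over all such regions. Mutant 3 held 8 of the 14 near regions and 0 of the 13 far ones. The shares that single mutants held were not counted by distance over all regions. Most of the 13 lay in strength deciles 1 to 5, where mutant 3 lacked 69.4% to 93.9% of all distal regions. The others lay in deciles 6, 8 and 9, where it lacked 59.6%, 31.5% and 11.1%. At Meis2 the near regions were held at 4, 7 and 4 of 7 in mutants 1, 2 and 3 and the far ones at 2, 0 and 0 of 5. The limit of 10 kb was chosen after the values were seen. At a −log10 q-value of at least 10 in every list, 4 distal member regions were left in both controls, and 3 of them had no peak past that limit in any mutant (over all distal regions 45.8%). They were the strong regions inside Meis1 and Meis2 described above, whose mutant peaks all fell short of the limit.

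For the 21 regions in all 5 libraries the fold could be ranked within lists of equal length, the 19579 regions that every library held. The median percentile of the 21 was 38.4 in control 1, 53.7 in control 2, 48.8 in mutant 1, 55.6 in mutant 2 and 53.9 in mutant 3. The difference of 6.73 percentile points was smaller than the gap between the controls (exact permutation p = 0.4). Without control 1 the difference was -0.923. In 5 of the 21 regions (23.8%) every mutant ranked above both controls, against 12.8% of all shared regions, and in none did every mutant rank below, against 11.6%. Each single region reached at best an exact permutation p of 0.2 (0.84 after Benjamini-Hochberg adjustment over 21 regions). The 5 regions include the own-end regions of Pbx2 and Pbx3. That of Pbx3 ranked at 75.7 and 75.6 in the controls and at 88.2, 90.7 and 80.9 in the mutants, and that of Pbx2 at 27.0 and 30.6 and at 43.9, 40.3 and 36.1. The region beyond the downstream end of Meis1 (18876385 to 18878275) ranked at 0.677 and 12.4 in the controls and at 24.0, 25.9 and 27.9 in the mutants. The last 2 lay nearest to ends of Kptn and Slc8a2 in the Meis3 neighbourhood. At the start of Meis1 the ranks overlapped, with control values of 47.3 and 32.4 and mutant values of 46.4, 55.6 and 48.9. So did those at Meis2, with 38.4 and 22.7 against 41.3, 48.2 and 23.4.

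**Figure D4:**
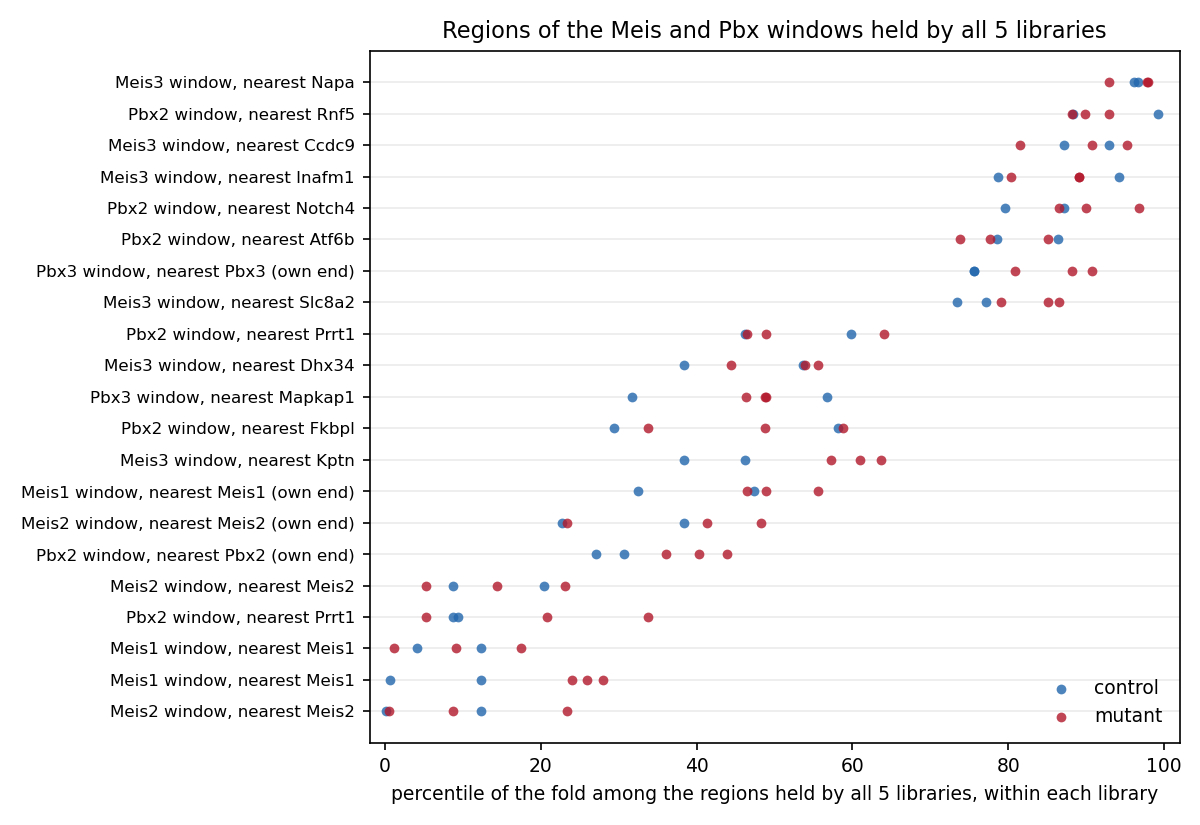
Percentile (horizontal axis) of the fold among the 19579 regions that all 5 libraries held, 1 row per member region and 1 dot per library, with controls in blue and mutants in red. The 21 rows are ordered by the control mean, and in 5 of them all red dots lie to the right of both blue dots.

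Other genes of the same setting are given by their counts. A list of 9 other TALE homeobox genes and Pbxip1, which encodes a PBX-binding protein, had 98 regions in both controls, of which 22 (22.4%) were in no mutant and 47 in all. Pknox2, which encodes a PBX partner of the PREP type, had 10 of 27 in no mutant. All 10 were among its 22 distal regions, a class with 42.0% in no mutant over all. Tgif1 and Tgif2 had 2 of 9 each, Pknox1 1 of 10 and Pbxip1 1 of 20. Irx1 had 2 of 5, Irx2 0 of 3, Irx3 1 of 4, Irx5 2 of 7 and Irx6 1 of 4. A list of 17 retinoic acid and proximodistal limb genes had 207 such regions, of which 41 (19.8%) were in no mutant and 85 in all. Of the retinoic acid genes, the receptor gene Rarb had 12 of 20 in no mutant, Dhrs3, a retinaldehyde reductase, 7 of 12, and Aldh1a2, which makes retinoic acid, 5 of 7. Over all regions the share was 30.4%. Of the regions counted at these 3 genes, 19, 11 and 6 were distal, a class with 42.0% in no mutant over all. Rara had 4 of 28, Crabp1 4 of 15 and Rarg 1 of 20. Crabp2, a retinoic acid binding protein, had 0 of 17, of which 10 were gene-end (over all 4.64% in no mutant). Cyp26b1, which degrades retinoic acid in the distal limb, had 0 of 5. The windows of Hoxa9, Hoxa10, Hoxa11 and Hoxa13 overlap and each had 6 of 45, and those of Hoxd9, Hoxd10, Hoxd11 and Hoxd13 overlap and each had 1 in no mutant, of 30 or 31. Neither list had a region in all mutants and neither control. The order of these shares and of the 5 genes depended on the setting: at a −log10 q-value of at least 10 it was 9.89% for the limb list and 15.8% for the 5 genes, with lists of equal length 4.88% for the TALE list and 5.0% for the 5 genes, and in gene bodies alone 32.4% for the TALE list and 30.4% over all regions.

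The genes most like each member were sought by the Euclidean distance between the shares of regions held in the 5 libraries, among genes with 0.5 to 2 times as many regions. Nearest to Meis1 were Slc46a2 (distance 0.0318), Ifit3b (0.0409) and Exoc6b (0.0608), of 11629 genes. For Meis2 they were Art3 (0.0515), Shc3 (0.0633) and Stau2 (0.0643), of 10473. For Meis3 they were Timm29 and Yipf2 (0.0673 each, with the same shares) and Nfkbid (0.072), of 10270, and for Pbx2 they were Apom (0.0353), D17H6S53E (0.0359) and Gltp (0.037), of 8804. For Pbx3 they were Cpeb1 (0.065), Spaca9 (0.067) and Vdac1 (0.0733), of 10883. The distance rests on 5 libraries and on few regions per gene, and it says only that the shares were alike.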

How the data were processed

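ATAC-seq peak lists of 2 control and 3 mutant libraries were used. Groups follow the genotype in the labels, and replicate numbers follow sample order and pair nothing. The submitters' processing notes name bcl2fastq 2.20.0, Bowtie2 2.3.5, MACS2 and the mm10 build. The MACS2 version and options, duplicate removal and the shift for the transposase cut were not given in the sources used here. Duplicates that were kept would raise pileups, and reads left without the shift would move peak borders slightly. The authors deposited 1 list per library, not pooled, with start, end and summit positions (other values, in bp), a display score (not used), the fold enrichment ratio and 2 significance columns (a −log10 p-value and a −log10 q-value). The deposited fold is not scaled between libraries, so it was ranked within lists. It lay on an even grid (100% of values within 0.02 of a step), which gave the background and the summit pileup. The Poisson p-value from these matched the deposited −log10 p to within 1e-05.

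Genes came from RefSeq, GRCm38.p6 (21631 protein-coding genes on chromosomes 1 to 19 and X). Where a library had several peaks in a region, the strongest was used. Regions were gene-end within 1 kb of a start or end of such a gene, and otherwise distal. Strength was the mean percentile of fold within the control lists, in 10 deciles. The groups were compared by exact permutation of the library labels (difference of means, two-sided; Python 3.11.15, pandas 2.3.3, numpy 2.4.6). Merging, loss counts and this test were tested on simulated data. The members and lists were chosen with earlier results of these data known. Named regions were those at the members' own ends, up to 5 per gene in both controls and no mutant, up to 3 in all libraries, and any in all mutants alone. Other regions are described as chosen after their values were seen. Alternatives were stricter q limits, equal list lengths, summit clusters, other windows, other ranks and leaving out each library.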

Additional observations from a re-analysis of the deposited data

How the results depend on the processing

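No paired analysis was possible because the labels carry no replicate numbers. Depth is known only as a background level, and absence of a peak is absence above the floor of each list. The mutant minus control difference in member regions held was -23.0. It was 4.5 with lists of equal length, where the same difference over all regions was not counted. Under the other settings tried it was negative, but the groups overlapped with the −log10 q limit of 10, with summit clusters and without control 1. With lists of equal length the differences by gene were 0.333 for Meis1 (as reported -3.67), -0.167 for Meis2 (-9.83), 2.67 for Pbx2 (-2.5) and 1.5 for Pbx3 (-7.5). At Meis3, 0.5 as reported, it was -0.833 at a −log10 q of at least 5, -0.333 in the gene body, 0 when that limit was 10, 0 with 50 kb, by nearest gene end and without control 1, and -2 to 2.5 over the 5 runs without 1 library. At Pbx2 it was 0.333 with the limit of 10, 0 in the gene body and by nearest gene end, and -6 to 0.5 without 1 library.

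The 7 control-only regions, all distal, were 15.2% of 46 (over all 30.4%). The count was 3 of 19 (15.8%, over all 23.9%) with the limit of 10. In the gene body it was 3 of 19 (15.8%, over all 30.4%), so the share hardly moved under either setting. With lists of equal length it was 1. That one was the strong region inside Meis1, its peak in mutant 1 being too weak for the shortened list. Over all regions at equal length 13.4% were control-only, and 1 of 20 (5%) among the members. Of gene-end regions 1 of 15 was control-only with summits within 250 bp (6.67%, over all 6.39%). Regions in all libraries numbered 6 of 38 (15.8%) in the gene body and 8 of 60 (13.3%) by nearest gene end, against 19.8% as reported. At equal length 1 region near Prrt1 in the Pbx2 neighbourhood counted as held by all mutants and neither control. In the full lists all 5 libraries held it. Control folds there were 4.51 and 3.91, and mutants 1, 2 and 3 had 4.32, 5.26 and 3.20. Its control peaks were too weak for the shortened lists, and the list of mutant 3 was not shortened. It is therefore no sign of a peak gained in mutants. The share of all regions with that pattern at equal length was not counted. Leaving out 1 library gave differences of -32 to -15.5, 8 to 26 control-only regions (8 to 21 distal, and 0 to 5 gene-end, the 5 being of 25 without control 2), 21 to 29 in all libraries and 0 to 0 mutant-only. The rank difference of shared regions, 6.73, was -0.268 by peak width and -0.923 to 12.1 without 1 library. With 1 control left, the smallest possible exact permutation p is 0.5. The cause of these changes was not tested.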
